A study of Homo sapiens with 6 samples.

Results

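The 3 genes described here are TENM4 on chromosome 11 and the neighbouring genes FAM135B and COL22A1 on chromosome 8. They were picked because earlier results of these same data showed M2 peaks of H3K27ac there in succession with few or no THP-1 peaks between them. Every peak that overlapped a fixed hg19 window was taken: 78.25 to 79.2 Mb of chromosome 11 for TENM4, and 139.1 to 139.95 Mb of chromosome 8 for FAM135B to COL22A1, of which 139.6 to 139.926 Mb is the COL22A1 part. The windows held 66 of the 56420 M2 peaks and 12 of the 31444 THP-1 peaks. Of the M2 peaks, 29 lay in the TENM4 window, 17 in the COL22A1 part and 20 in the remainder of the second window, called the FAM135B side below. Of the THP-1 peaks, 5, 3 and 4 did.

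H3K27ac is acetylated histone H3, a mark carried by active promoters and enhancers. The series compared THP-1, a human monocytic leukaemia line, with cells labelled as M2 macrophages, a name given to phagocytes in an alternatively activated state. Both were grown in RPMI medium with fetal bovine serum, and no further treatment, source cell or polarising agent is given for the M2 cells in the labels. There was 1 H3K27ac library for each cell type, so every value below describes 1 library, no difference has a replicate check, and no p-value is given. Neither the YY1 nor the input libraries were used here. The labelled cell types were not checked against marker genes, because no hg19 gene positions were used beyond the windows above. For the same reason no peak is called a promoter peak.

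TENM4 encodes teneurin-4, a large transmembrane protein of the teneurin family, which is studied mainly in the wiring and myelination of the nervous system and binds latrophilin receptors on neighbouring cells. COL22A1 encodes collagen XXII, an extracellular matrix protein of tissue junctions such as that between muscle and tendon. FAM135B is a little-studied protein-coding gene. None of the 3 is among the genes commonly used to mark macrophages. All are transcribed from the high-coordinate towards the low-coordinate end of their windows. In RefSeq gene order the neighbour of TENM4 on the low-coordinate side is NARS2, which encodes a mitochondrial asparaginyl-tRNA synthetase, and the peaks nearest that edge of the window may belong to either gene. The microRNA genes MIR708 and MIR5579 lie inside TENM4 in the same annotation. No sequence is printed, because no hg19 sequence was used here.

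The TENM4 window carried scattered H3K27ac in both lists, and the lists shared none of it. All 29 M2 peaks were M2-only, that is, no THP-1 peak had a base in common with them (100%, exact 95% binomial interval 88.1 to 100), beside 63.0% of all M2 peaks. All 5 THP-1 peaks were likewise without an M2 peak (100%, 47.8 to 100), beside 24.7% of all THP-1 peaks. The windows were chosen on this contrast, so these shares describe the choice and are no test of it. The intervals cover counting error only, since peaks of 1 library are not independent replicates. The M2 peaks came to 30.5 per Mb and covered 31.8 kb, 3.34% of the window, with a mean width of 1096 bp. The whole M2 list had 19.2 peaks per Mb and covered 2.08% of the genome between the first and last peak of each chromosome. THP-1 peaks covered 3.45 kb, or 0.363% of the window, beside 0.950% for the whole THP-1 list.

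**Figure D1:**
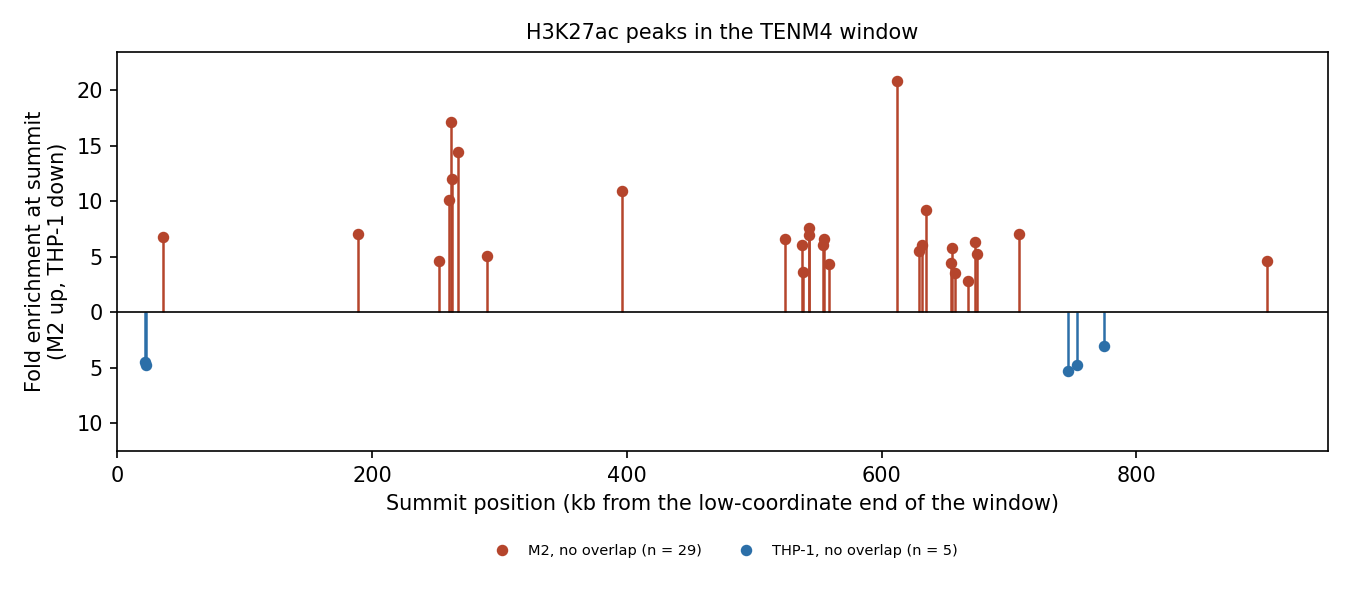
H3K27ac peaks in the TENM4 window: each line is a peak, placed by its summit in kb from the low-coordinate end of the window, and its length is the fold enrichment at the summit, M2 upwards and THP-1 downwards. The 29 M2 peaks reach 20.9-fold and none overlaps any of the 5 THP-1 peaks, which sit at the low-coordinate end and in a stretch without M2 peaks.

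The highest fold enrichments of the TENM4 window lay in a compact cluster and at a single peak. Fold enrichment is the authors' value for each peak, the pileup at the summit over the local background. Peaks are called strong or weak below by fold enrichment alone, and a low local background raises it. The cluster, on chromosome 11 at 78501977 to 78518918, held 5 M2 peaks with 8.97 kb of covered sequence and no THP-1 peak. The peak at 78510862 to 78512389 was 17.2-fold enriched, the one at 78514634 to 78518918 was 14.5-fold and the one at 78512549 to 78514419 was 12.0-fold. These lie in the upper part of all M2-only peaks of the list: 17.2-fold is above 98.9% of them and 12.0-fold above 95.1%. The peak at 78514634 to 78518918 was also the widest of the window, 4285 bp, and wider than 99.6% of M2-only peaks.

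The single peak at 78861053 to 78863259 had the highest fold enrichment of all members, 20.9-fold, above 99.5% of M2-only peaks. It was 2207 bp wide, and the nearest THP-1 peak was 132762 bp away. A further isolated peak at 78646039 to 78647228 was 10.9-fold enriched and stood 348793 bp from any THP-1 peak, the farthest of all members. The third-widest peak, at 78884132 to 78886254, measured 2123 bp and was 9.27-fold enriched.

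The other TENM4 peaks had lower fold enrichment and fell into loose groups. Lower fold did not always mean fewer fragments over the summit, recovered as described under the processing. The 5.84-fold peak at 78905170 to 78906904 had 89 fragments, with a local background 6.19 times the lowest of the list. The 10.9-fold peak at 78646039 to 78647228 had 37, with a local background 1.00 times the lowest. M2 peaks no more than 12.5 kb apart were joined, which gave 11 stitched regions, 7 of which were a single peak. The group with the most peaks, at 78774001 to 78808568, held 8 peaks of 3.62 to 7.60-fold over 34.6 kb. The next, at 78903963 to 78924768, held 6 peaks of 2.79 to 6.35-fold. Of the 29 peaks, 22 exceeded the median fold enrichment of all M2-only peaks, which was 5.00, and 6 were among the highest 10%, at 9.57-fold or more. The same counts, 22 and 6, were found for width, against a median of 591 bp and a 90th percentile of 1641 bp.

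The THP-1 peaks of the TENM4 window were few, and they sat where M2 had no peak. Their fold enrichment ran from 3.07 to 5.24, beside a median of 3.67 over the THP-1 list, and their -log10 q from 4.69 to 9.02, beside a list median of 8.41. A pair at 78271219 to 78271861 and 78272120 to 78272630, 4.49 and 4.76-fold enriched, lay at the NARS2 side, 12727 bp from the first M2 peak. The other 3 were at 78996022 to 78996961 (5.24-fold), 79003285 to 79003635 (4.76-fold) and 79023538 to 79024537 (3.07-fold). All 3 fell in the longest stretch of the window without an M2 peak, which ran 194 kb from 78958372 to 79152186. The other long M2-free stretches, 152 kb from 78286369 and 127 kb from 78647229, held no THP-1 peak. Beyond that stretch, at the high-coordinate end from which TENM4 is transcribed, M2 had a lone peak at 79152187 to 79153109, 4.67-fold enriched and 923 bp wide, and THP-1 had none.

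Just outside the TENM4 window, the nearest M2 peak was 5.64 kb below its low edge (5.38-fold) and 137 kb above its high edge (4.64-fold). The nearest THP-1 peaks outside lay 113 kb below (3.47-fold) and 678 kb above (6.60-fold).

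The COL22A1 part, of 326 kb, had more M2 peaks per Mb than the TENM4 window of 950 kb, and a larger share covered. Its M2 peaks lay only on the side away from the end where COL22A1 transcription begins. The 17 M2 peaks of the part came to 52.1 per Mb and covered 19.7 kb, 6.05% of it, with a mean width of 1160 bp. Of these, 16 were M2-only (94.1%, 71.3 to 99.9), beside the same 63.0%, again a description of the choice. The M2 peaks lay within the first 97.0 kb from the low-coordinate end, which is 29.8% of the part, and the remaining 229 kb held none. THP-1 had 3 peaks over 2.57 kb, or 0.789% of the part. These densities depend on where the edges were set. The whole chromosome 8 window, of 850 kb, had 43.5 M2 peaks per Mb and 3.90% covered, beside 30.5 and 3.34% for TENM4.

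Of the 3 THP-1 peaks of COL22A1, 2 lay far from any M2 peak and 1 inside an M2 peak. The pair lay near the high-coordinate end, the end from which the gene is transcribed. The peak at 139917511 to 139918467 was 9.40-fold enriched, above 98.4% of THP-1-only peaks, and ended 7533 bp from that edge of the part. The one at 139915087 to 139916253 was 6.26-fold enriched. Their nearest M2 peak was 220488 and 218064 bp away. At this end of COL22A1 the contrast therefore ran the other way, with peaks in the THP-1 list and none in the M2 list. The remaining THP-1 peak, at 139691909 to 139692357, was 3.64-fold enriched and 449 bp wide, and lay wholly within an M2 peak of 3091 bp.

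The M2 peaks of COL22A1 formed 3 stitched regions. The middle one, at 139634630 to 139666985, held 9 peaks over 9.18 kb and no THP-1 peak. It contained the strongest peak of the part, at 139649564 to 139651004, which was 13.5-fold enriched and above 96.8% of M2-only peaks. The second by fold enrichment, at 139665349 to 139666985, was 10.3-fold enriched. It had 45 recovered fragments over its summit and a local background 1.43 times the lowest of the list. Some peaks of lower fold had more fragments, among them 63 at 139615007 to 139615789 and 80 at 139692646 to 139694223. The peak at 139646844 to 139648929 was 2086 bp wide but only 4.92-fold enriched. The region nearest the low-coordinate end, at 139609505 to 139621059, held 5 peaks of 2.54 to 9.53-fold, the strongest at 139615007 to 139615789, and no THP-1 peak. The third region, at 139689342 to 139697022, held 3 peaks of 7.59 to 9.53-fold, and these included the widest of the part, 3091 bp and, at 139694705 to 139697022, 2318 bp with 8.25-fold enrichment. Its 3091 bp peak is the one that overlapped a THP-1 peak, with a summit 141 bp from the THP-1 summit. By the recovery of fragments described under the processing, 104 fragments lay over the M2 summit and 15 over the THP-1 summit. These numbers are not adjusted for library depth, and no difference is drawn from them.

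COL22A1 peaks were mixed in strength. Of its 16 M2-only peaks, 8 exceeded the median fold enrichment of all M2-only peaks and 2 were in the highest 10%. For width the counts were 10 and 2. The weakest of them, at 139619744 to 139620296, was 2.54-fold enriched, below all but 2.55% of M2-only peaks.

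**Figure D2:**
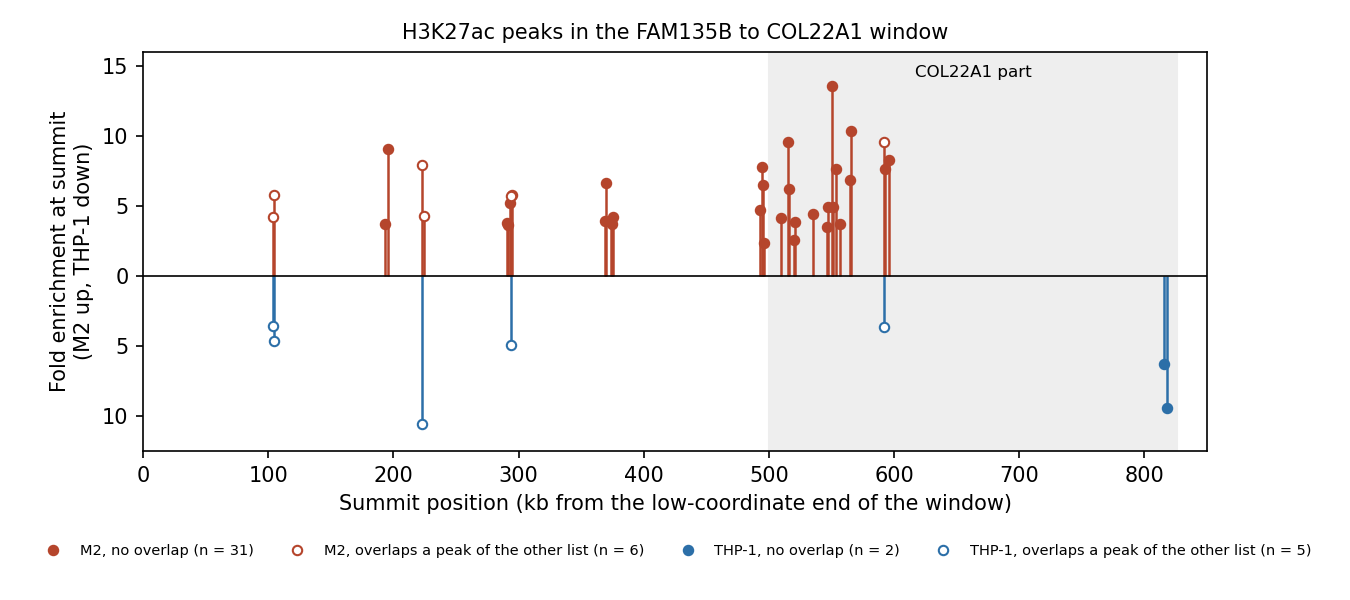
H3K27ac peaks in the FAM135B to COL22A1 window, drawn as lines at their summits in kb from the low-coordinate end, with fold enrichment upwards for M2 and downwards for THP-1, open circles for peaks that overlap a peak of the other list, and grey shading for the COL22A1 part. All 4 THP-1 peaks outside the shading are open, while the pair at the far end of COL22A1, 6.26 and 9.40-fold, has no M2 peak near it.

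The FAM135B side was not M2-only throughout. All 4 of its THP-1 peaks overlapped an M2 peak, and 5 of its 20 M2 peaks overlapped a THP-1 peak. The M2-only share was 75% (50.9 to 91.3, counting error only), beside 63.0% of the whole list, and was not tested against it. The 5 overlapping M2 peaks all lay at or below 139394141. From 139394473 up to the COL22A1 part there was no THP-1 peak, and the M2 peaks there belong to the run described below. M2 peaks came to 38.2 per Mb and covered 13.4 kb, or 2.57% of the 524 kb. THP-1 peaks covered 4.88 kb, or 0.930%, close to the 0.950% of the whole THP-1 list.

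At the widest site of the FAM135B side the THP-1 peak was broader than the M2 peaks. On chromosome 8 at 139322148 to 139325221 it spanned 3074 bp at 10.6-fold with 54 fragments over its summit. This THP-1 peak contained a pair of M2 peaks of 701 and 761 bp, 7.91 and 4.27-fold enriched, with 27 and 21 fragments. It is thus not a THP-1-only peak, though its fold enrichment was above that of 99.2% of those peaks. At the low-coordinate end, M2 peaks at 139203524 to 139203945 (4.23-fold) and 139204592 to 139206309 (5.78-fold, 1718 bp, the widest M2 peak of this side) overlapped THP-1 peaks at 139203721 to 139204110 (3.55-fold) and 139204548 to 139205380 (4.65-fold). The remaining shared site had an M2 peak at 139393490 to 139394141 (5.72-fold) and a THP-1 peak at 139393287 to 139393864 (4.94-fold). Fold enrichments of the lists are each set against their own background, so their sizes are given side by side and no difference is drawn from them. The same holds for the fragment numbers, which are not adjusted for library depth.

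The M2-only peaks of the FAM135B side had a median fold enrichment of 4.17, beside 6.35 for TENM4 and 5.58 for COL22A1 in the same library. Over all M2 peaks, shared ones included, the medians were 4.49, 6.35 and 6.23 in the same order. Over those with a -log10 q of at least 10, they were 7.19 (6 peaks), 7.07 (18 peaks) and 7.94 (10 peaks). That threshold removes weak peaks by itself and leaves few, so no order is drawn from these last medians. None of the 15 M2-only peaks of the FAM135B side was in the highest 10% of M2-only peaks by fold enrichment or by width, and 6 exceeded the median fold. The strongest was at 139294327 to 139295679, 9.03-fold enriched and 1353 bp wide. A cluster of 4 at 139592898 to 139596299, of 2.33 to 7.78-fold, ended 3.70 kb short of the low-coordinate edge of the COL22A1 part. The strongest peak of that cluster, at 139593652 to 139594817, was 1166 bp wide, and the next, at 139595003 to 139595696, was 6.48-fold enriched. The others lay mainly in a cluster of 5 at 139468881 to 139475738, all at least 75016 bp from any THP-1 peak, and beside the shared site at 139393490. The strongest of that cluster, at 139469872 to 139470374, was 6.60-fold enriched.

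The whole chromosome 8 window stood alone in the lists. The nearest M2 peak below it was 2630 kb away and the nearest above it 957 kb away. For THP-1 these distances were 3110 and 957 kb. The peak names run without a missing number along chromosomes 8 and 11 in both lists. Within the window the longest M2-free stretches were the 253 kb at its high-coordinate end, 117 kb from 139475739 and 104 kb at its low-coordinate end, of which the first held 2 THP-1 peaks and the others none.

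The peaks of the TENM4 window were spaced a median of 6027 bp apart, with 10 of 28 spacings under 1000 bp. On chromosome 8 they were grouped more tightly, with a median spacing of 640 bp and 22 of 36 spacings under 1000 bp. In bins of 50 kb, M2 summits fell in 10 of 19 bins of the TENM4 window, with at most 6 in a bin, and in 8 of 17 bins of the chromosome 8 window, with at most 9.

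**Figure D3:**
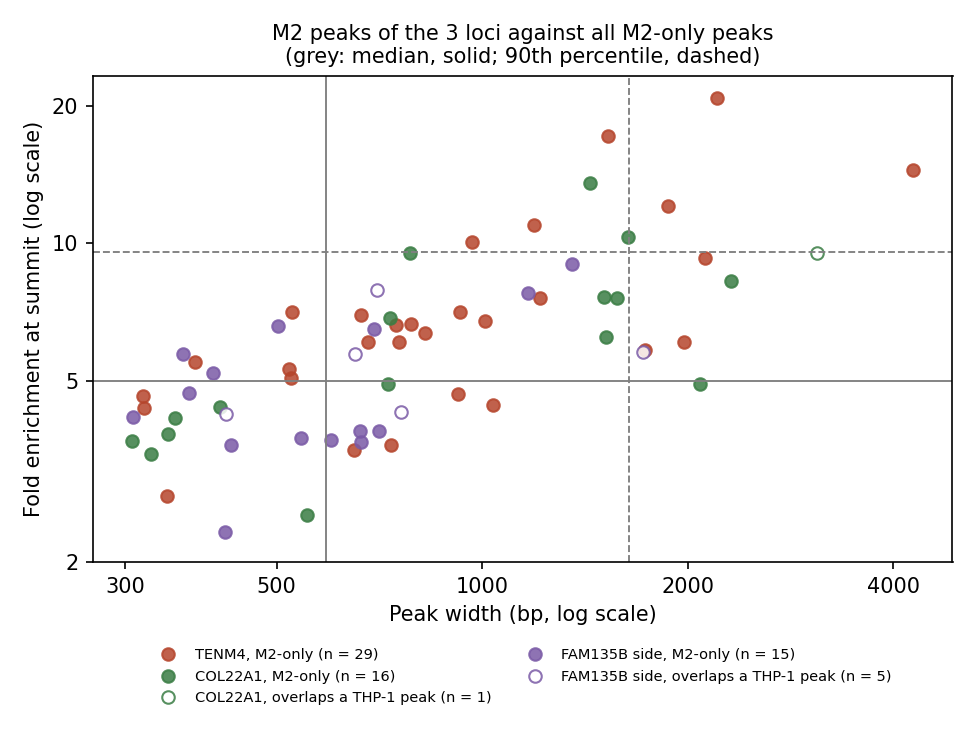
Width in bp against fold enrichment of each M2 peak of the 3 loci, both on log scales, with grey lines at the median and 90th percentile of all M2-only peaks (591 and 1641 bp, 5.00 and 9.57-fold). TENM4 has 22 of 29 peaks above the median line for fold, COL22A1 8 of 16 M2-only peaks and the FAM135B side 6 of 15.

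A run was taken as all M2 peaks that lie between a THP-1 peak and the next THP-1 peak. The list had 31421 such gaps, and 12194 of them held at least 1 M2 peak, with a median of 2. The TENM4 run held 28 M2 peaks, from 78285358 to 78958371, in a gap of 723 kb, and ranked 4 by number of peaks among all gaps. The run that ends in COL22A1 held 24 M2 peaks, from 139394473 to 139666985, in a gap of 298 kb, and ranked 5. Of its peaks 14 were in the COL22A1 part and 10 on the FAM135B side, and the M2-free 117 kb lies within it. Only 29 gaps held 20 or more M2 peaks, and the highest count was 36. The loci were picked for such runs, so ranks 4 and 5 describe the choice and are no test of it. The same holds for the ranks under other settings below. The other gaps with M2 peaks in the windows held 2 or 3 each, counted over the whole gap. The gap that starts at 79024538 held 3, up to 79338119, and of these only the peak at 79152187 to 79153109 lay in the TENM4 window. The place of the TENM4 run was less dependent on the settings than that of the run ending in COL22A1. In lists of equal length the TENM4 run held 16 peaks and ranked 2, and with neighbouring peaks merged it held 19 and ranked 4, while at a -log10 q of 10 or more in both lists it held 21 and ranked 26. The run ending in COL22A1 fell to 10 peaks and rank 21 in lists of equal length, to 12 and rank 58 after merging, and to 13 and rank 191 at that threshold. At a -log10 q of 5 or more in both lists, the TENM4 run held 24 peaks and ranked 8, and the other held 20 and ranked 21. The number of gaps ranked was 31421 in lists of equal length, 25900 after merging, 23461 at 5 or more and 13218 at 10 or more. In the opposite direction, the THP-1 peaks of these windows that overlapped no M2 peak formed runs of 2 or 3 between neighbouring M2 peaks.

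**Figure D4:**
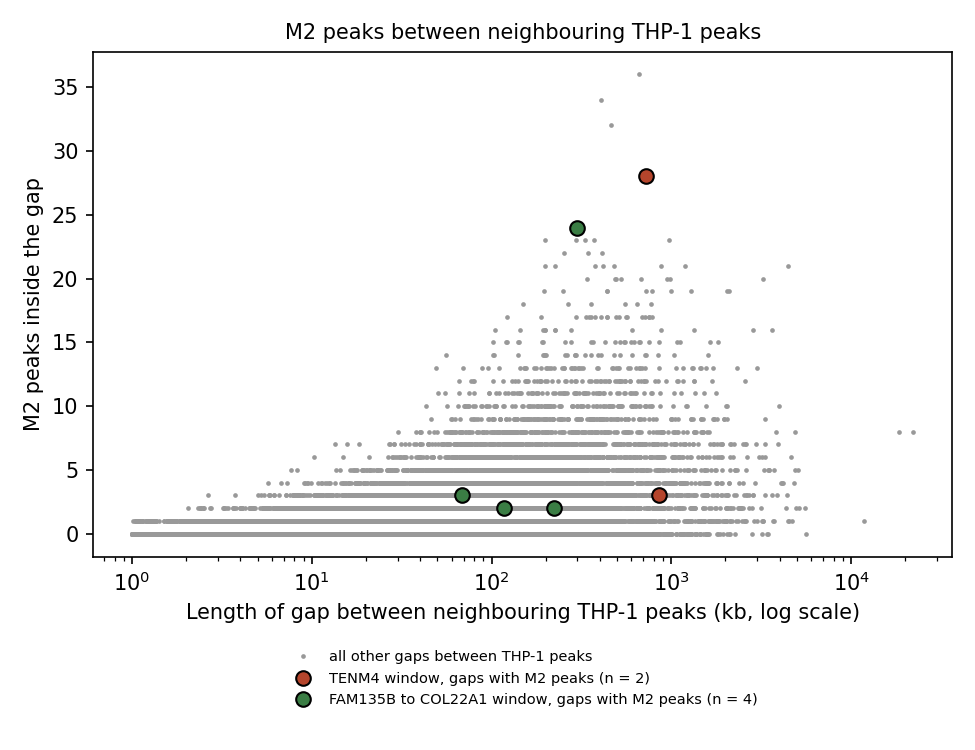
Number of M2 peaks in each gap between neighbouring THP-1 peaks against the length of the gap in kb on a log scale, with gaps under 1 kb left out. The TENM4 run (28 peaks, 723 kb) and the run ending in COL22A1 (24 peaks, 298 kb) stand near the top. The other 4 gaps with M2 peaks in the windows hold 2 or 3, counted over the whole gap.

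The whole genome was also divided into tiles as wide as each window, as a description of how common such a makeup was. Of 3182 tiles of 950 kb, 5 (0.157%) held at least 29 M2 and at most 5 THP-1 summits. Of 3556 tiles of 850 kb, 8 (0.225%) held at least 37 M2 and at most 7 THP-1 summits, the totals of the whole chromosome 8 window. Of 9290 tiles of 326 kb, 58 (0.624%) held at least 17 M2 and at most 3 THP-1 summits. High M2 numbers by themselves were common: 750 of the 950 kb tiles held at least 29 M2 summits, and those tiles had a median of 22 THP-1 summits. The windows were placed around known runs and the tiles were not, so these shares are not chance levels.

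Depth limits what the absence of a THP-1 peak can say. The recovered fragments over the M2 summits numbered 14 to 107 in the TENM4 window (median 29.5), 13 to 104 in the COL22A1 part (median 35) and 14 to 45 on the FAM135B side (median 25), beside a median of 39 over all M2 peaks. Recovery succeeded for 28 of 29, 16 of 17 and 18 of 20 M2 peaks in that order, and the values cover those peaks only. The THP-1 peaks of the loci had 14 to 54, beside a median of 40 over all THP-1 peaks, and the lowest of any THP-1 peak was 8. Where no THP-1 peak was called, acetylation was not detectable at this depth and threshold, which does not show that it was absent. The local background at these M2 summits, divided by the lowest of the list, had medians of 1.55, 1.98 and 1.82 in the same order, beside 2.38 over all M2 peaks. At the 12 THP-1 peaks of the loci it was 1.69, beside 5.04 over all THP-1 peaks. Where THP-1 had no peak its background is unknown, and the part of background in these contrasts was not tested.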

How the data were processed

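Chromatin of THP-1 and M2 cells was immunoprecipitated for H3K27ac and sequenced as paired ends of 150 cycles, per the labels' protocols. The submitters' processing notes name Bowtie2, MACS2 2.1.0 and hg19 but give neither settings nor the control used. Fold enrichment (a ratio), -log10 p, -log10 q and the score of each peak are values the authors deposited in the narrowPeak lists, which have no header. The score column was not used. M2 peaks reached down to a -log10 q of 1.31 and THP-1 peaks to 1.30. The columns also give each summit's position, used as deposited. Each list was tied to its library by its name, and the Y chromosome was left out.

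Peaks sharing at least 1 bp counted as overlapping. Shares carry exact (Clopper-Pearson) 95% binomial intervals. Peaks were named by rule: per locus the 5 M2 peaks of highest fold, the 3 widest, every THP-1 peak, every overlapping M2 peak, the flanking THP-1 peaks and the 3 longest gaps. Extremes and clusters beyond this rule were chosen after their values were seen. The members and lists were chosen with earlier results of these data known. Fragments over a summit were recovered by solving the MACS2 relations for fold enrichment and Poisson p together, with the M2 pileup scaled by 0.842. A unique solution existed for 99.1% of the M2 list and 100% of the THP-1 list, and for 62 of the 66 M2 peaks of the loci. These fragment numbers are an inference and were not counted from reads. The recovery, overlap and run steps were tested on simulated data. Python 3.11.15, pandas 2.3.3 and scipy 1.17.1 were used. A planned comparison with other teneurin, latrophilin and collagen genes was not made, because no hg19 annotation was used here. Strand and gene order came from RefSeq for TENM4 (GRCh38) and, for the strand of FAM135B and COL22A1, from general knowledge.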

Additional observations from a re-analysis of the deposited data

How the results depend on the processing

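No paired analysis was possible because each group has 1 library and no test was made. Of 114 values recomputed under other settings, 78 stayed within 1.5 times the reported count or length, or within the interval of the reported share or median, and 36 moved. With peaks kept from a -log10 q of 10 upwards, M2 had 18 peaks for TENM4, 10 for COL22A1 and 6 for the FAM135B side, of which 18, 10 and 4 were M2-only, and the THP-1 peaks numbered 0, 1 and 2. Over the whole lists this threshold kept 34097 of 56420 M2 peaks and 13241 of 31444 THP-1 peaks. The M2-only share of the whole list was not computed under the settings of this section. The M2-only counts given here therefore have no background share beside them. At that threshold THP-1 peaks covered 0 kb of the TENM4 window and 0.957 kb of COL22A1, and M2 peaks 6.14 kb of the FAM135B side, where the median fold became 7.19 (7.07 for TENM4 and 7.94 for COL22A1) and the median width 933.5 bp. In lists cut to 31444 peaks each, the M2 peaks numbered 16, 10 and 6, with 16, 9 and 4 M2-only and 6.14 kb covered on the FAM135B side. With peaks within 500 bp merged, COL22A1 had 10 M2 peaks (9 M2-only) and the FAM135B side 11 (7 M2-only). The M2-only share of COL22A1 became 100% at a -log10 q of at least 5, at 10 and under a reciprocal overlap of at least 50%. This rise follows from the settings alone. Its 1 overlapping THP-1 peak had a -log10 q of 3.94 and was dropped by both thresholds. At 449 bp inside an M2 peak of 3091 bp, it could not meet the reciprocal rule. The longest run on chromosome 8 held 13 peaks at a -log10 q of at least 10, 10 with that threshold on the M2 list alone, 10 in lists of equal length and 12 after merging. The TENM4 run held 18 with the threshold on the M2 list alone and 16 in lists of equal length. With both lists at the threshold it held 21, since removing THP-1 peaks lengthens the gap. COL22A1 had 6 stitched regions at a joining distance of 5 kb and 1 at 25 kb. In each of these settings every M2 peak kept in the TENM4 window was M2-only. That outcome was fixed beforehand and adds no support. None of the 29 peaks overlapped a THP-1 peak at the start, and the nearest THP-1 peak lay 12727 bp away. Without its peak nearest NARS2, a setting added after the values were known, the TENM4 window held 28 M2 peaks and its run 27.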
